A study of Mus musculus with 6 samples.

Results

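The interferon response genes and the MHC class I antigen presentation genes were followed in mouse brain samples that the labels call paraventricular nucleus of the hypothalamus, from wild-type mice and from mice lacking ADAM17 in glutamatergic neurons. The set holds 35 genes of the 51826 in the deposited table. It was chosen by gene name from 2 lists kept apart here, 22 interferon-induced genes and 13 genes of antigen presentation, and all 35 were found. ADAM17, a protease anchored in the membrane, releases cytokines, growth factors and receptors from cell surfaces. The wild-type group (WT) has 3 libraries, males 1 and 2 and female F1, and the knockout group (KO) likewise has males 1 and 2 and female F1. The stated aim was to learn how the knockout affects gene expression in this nucleus. The labels name the genotypes only as WT and as glutamatergic neuronal ADAM17 knockout. No source used here names the strain, the age, the driver of the knockout or a treatment. The knockout is limited to 1 class of neurons, whereas the libraries hold RNA of the whole tissue piece, so fewer cells of a type and less RNA per cell cannot be told apart.

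Type I interferons bind a receptor made of IFNAR1 and IFNAR2, and the kinases JAK1 and TYK2 then activate transcription factors, STAT2 among them. STAT2 and IRF9 belong to a complex that binds the interferon-stimulated response element (ISRE) in promoters, and the genes so induced block viruses at entry, replication and release. MHC class I molecules show peptides from inside the cell to CD8 T cells. A heavy chain pairs with beta-2-microglobulin (B2m), peptides are cut by the immunoproteasome (Psmb8, Psmb9, Psmb10), moved into the endoplasmic reticulum by TAP (Tap1, Tap2) and loaded with the help of tapasin (Tapbp). In the brain, microglia and endothelial cells are the usual sources of class I and interferon-induced transcripts, and neurons can express them as well.

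The ISRE could be searched for in the promoters of these genes, and it was found mostly in the interferon-induced list. RefSeq promoter windows (build GRCm38.p6, 250 bases before to 50 after the start) were matched by symbol for 28 of the 35 genes. Mx1, Zbp1, Usp18, Ifi27l2a, Rtp4, Tap2 and Nlrc5 had no entry. The ISRE core, searched as GAAANNGAAA or its reverse TTTCNNTTTC, occurred in 12 of 17 interferon-induced genes (70.6%) and in 3 of 11 antigen presentation genes (27.3%). Of all 27025 genes in the table, 1079 (3.99%) held it. The 3 antigen presentation genes were H2-T23, H2-T22 and B2m. The core of the gamma-activated site (GAS), the palindrome TTCNNNGAA, occurred in 2 of 17 (Bst2 and Ifitm3) and in 1 of 11 (Psmb8), against 9.55% of all genes. In Bst2 and Ifitm3 the GAS match overlaps an ISRE match, so the matches share bases. A match describes these letters in this window only. In 7 genes the ISRE core occurred more than once, and in Isg15 it occurred 3 times in overlapping copies. The stretches that follow, read 5′ to 3′ on the gene's strand with the ISRE core in capitals, are those of 5 genes whose values are given library by library, and of Isg15 for its repeated cores.
Ifit1, chr19:34640740-34640858, plus strand: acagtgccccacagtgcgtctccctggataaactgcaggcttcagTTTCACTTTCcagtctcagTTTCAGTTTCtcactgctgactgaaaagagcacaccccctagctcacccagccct
Ifit3, chr19:34583328-34583461, plus strand: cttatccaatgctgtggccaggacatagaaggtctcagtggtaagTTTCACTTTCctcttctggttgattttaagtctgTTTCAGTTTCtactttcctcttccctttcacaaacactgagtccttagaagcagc
Isg15, chr4:156200830-156200941, minus strand: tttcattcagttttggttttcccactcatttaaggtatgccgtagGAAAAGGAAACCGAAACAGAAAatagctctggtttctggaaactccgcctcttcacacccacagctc
Stat2, chr10:128270248-128270330, plus strand: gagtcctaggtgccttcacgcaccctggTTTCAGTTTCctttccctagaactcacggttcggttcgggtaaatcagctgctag
H2-T22, chr17:36042879-36042978, minus strand: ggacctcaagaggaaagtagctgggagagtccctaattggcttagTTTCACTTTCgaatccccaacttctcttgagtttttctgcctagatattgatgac
B2m, chr2:122147503-122147602, plus strand: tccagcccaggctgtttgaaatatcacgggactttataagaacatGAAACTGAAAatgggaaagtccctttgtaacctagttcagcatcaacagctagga

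Ifit1 and Ifit3 carry the same pair of cores, at 104 and 85 bases before the start in Ifit1 and at 156 and 122 bases before it in Ifit3. In Stat2, H2-T22 and B2m a single core lies 222, 191 and 139 bases before the start. Cores in Ifitm3 and Ddx58 lie after the start.

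**Figure D1:**
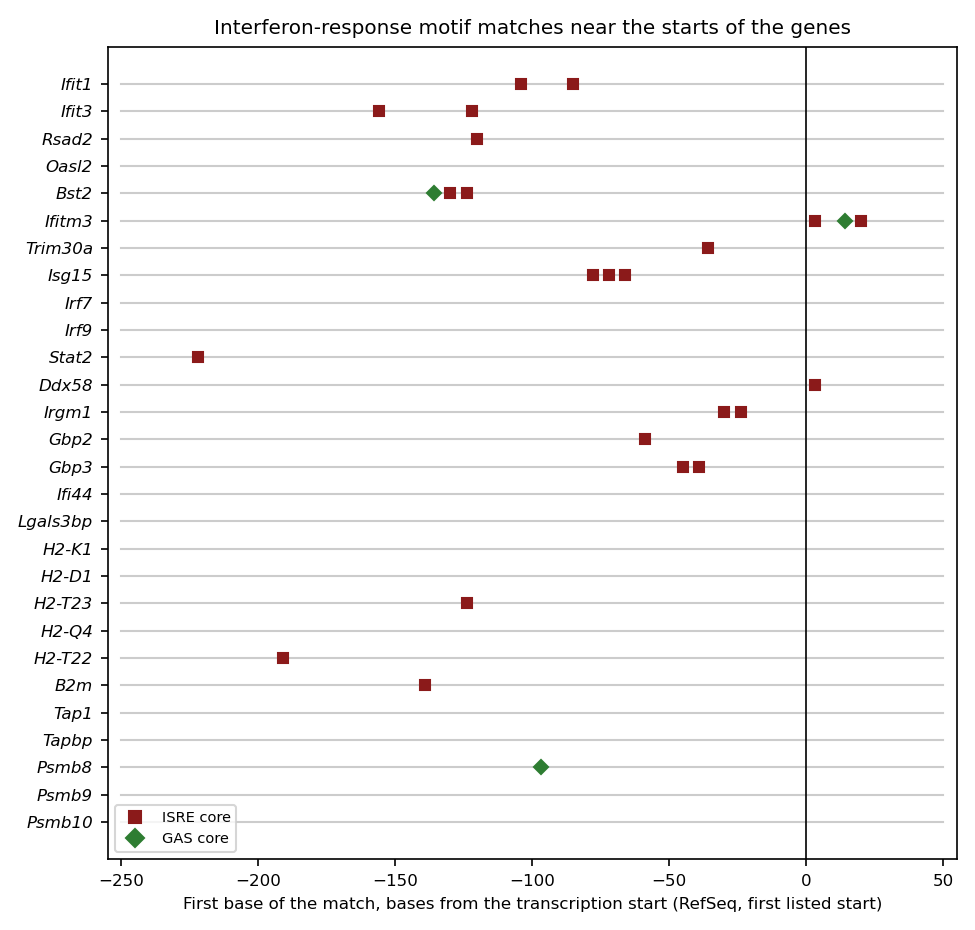
Matches of the ISRE core (squares) and the GAS core (diamonds) in the promoter windows of the 28 matched genes. The horizontal axis is the distance of the first base from the transcription start, in bases, and each row is a gene; ISRE matches sit in 12 of the 17 interferon-induced genes at the top and in H2-T23, H2-T22 and B2m below them.

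The total count ran from 35114426 in KO 1 to 54421330 in WT F1. KO 1 stood apart, with 20.6% of its counts on mitochondrially encoded genes against 7.22% to 9.20% in the other 5, so values without it are given where it matters. Adam17 read 17.1, 17.2 and 15.6 CPM (counts scaled to a common library size, using TMM, the trimmed mean of M values) in WT 1, 2 and F1 and 15.4, 14.6 and 13.9 CPM in KO 1, 2 and F1. Its log2 fold change, KO minus WT as throughout, was −0.19 with an adjusted p of 0.747 in edgeR. The 10 listed markers of the paraventricular nucleus summed to between 608 and 1226 TPM (the deposited length-corrected unit), most of it Sst at 493 to 881 TPM, a neuropeptide gene that cortical interneurons also express. Sim1 and Otp, transcription factors that specify the nucleus, ranged from 0.18 to 1.08 and from 1.14 to 8.80 TPM. The 8 markers of cortex and hippocampus summed to between 580 and 1014 TPM, led by the vesicular glutamate transporter Slc17a7 at 341 to 745 TPM, where Slc17a6, the transporter of the hypothalamus, ranged from 18.2 to 72.7 TPM. The KO minus WT log2 fold change was positive for all 8 of these cortex and hippocampus markers (median 0.37), beside 49.4% of all genes tested. edgeR called 0 of the 8, and 3 had an unadjusted p under 0.05 with higher values in KO, beside 6.38% of all genes. Markers of both regions were thus present, and the part of tissue outside the labelled nucleus in the results was not tested.

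Antigen presentation genes were the more abundant list in this tissue, and B2m stood far above the rest. Levels between genes are compared in TPM, which corrects for transcript length. The median over genes of the mean level in 6 libraries was 20.3 TPM for antigen presentation and 2.74 TPM for the interferon-induced genes, beside 11.1 TPM for all 18956 genes tested. Of the 13 antigen presentation genes 7 reached 20 TPM, whereas 15 of the 22 interferon-induced genes lay under 5 TPM.

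B2m, the light chain shared by all class I molecules, read 268, 280 and 213 TPM in WT 1, 2 and F1 and 245, 243 and 255 TPM in KO 1, 2 and F1. Its mean of 251 ± 23.2 TPM (SD, n = 6) exceeded that of 97.4% of the genes tested. The classical heavy chain H2-D1 followed at 62.4 ± 16.9 TPM, and H2-K1, the other classical chain, at 33.8 ± 9.15 TPM. The ranges of H2-D1 and H2-K1 overlapped, since H2-D1 was at 30.8 TPM in KO 1 while H2-K1 reached 43.9 TPM in WT F1. Within each library H2-D1 was the higher, by 1.63 to 1.99 times. After them came Psmb10 at 31.1, Tapbp at 29.1, H2-T23 at 20.7 and H2-T22 at 20.3 TPM, with SDs of 5.07 to 8.28 TPM, and the ranges of neighbours in this order overlapped.

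The immunoproteasome subunits were very unequal among themselves. Psmb8 (4.02 TPM) and Psmb9 (2.08 TPM) were far below Psmb10 (31.1 TPM). Set against the constitutive subunit that each replaces, the WT ratio was 2.71% ± 0.64 for Psmb8 to Psmb5, 1.27% ± 0.27 for Psmb9 to Psmb6 and 23.5% ± 3.94 for Psmb10 to Psmb7 (SD, n = 3). In KO these ratios were 3.46% ± 0.70, 1.10% ± 0.18 and 23.5% ± 1.91. The genotypes overlapped in all 3, with exact two-sided permutation p-values of 0.3, 0.4 and 1, where 3 libraries against 3 can reach no less than 0.1. The class I transactivator Nlrc5 was lowest of this list at 0.53 TPM, below Psmb9, Tap1 (2.11 TPM) and Psmb8.

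Among interferon-induced genes, Ifitm3, a membrane protein that blocks viral fusion, was highest at 27.9 ± 7.38 TPM, followed by the secreted glycoprotein Lgals3bp at 22.7 ± 2.35 TPM. Stat2 (10.9 TPM), Bst2 (10.9 TPM), which tethers budding virions, Irgm1 (7.46 TPM) and Irf9 (7.13 TPM) came next. At the low end stood Mx1, a GTPase that blocks influenza viruses, at 0.14 TPM, with Zbp1, a sensor of left-handed nucleic acids, at 0.29 TPM and Ifi44 at 0.58 TPM. Mx1 rested on 2 to 15 counts a library, too few to compare libraries closely.

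**Figure D2:**
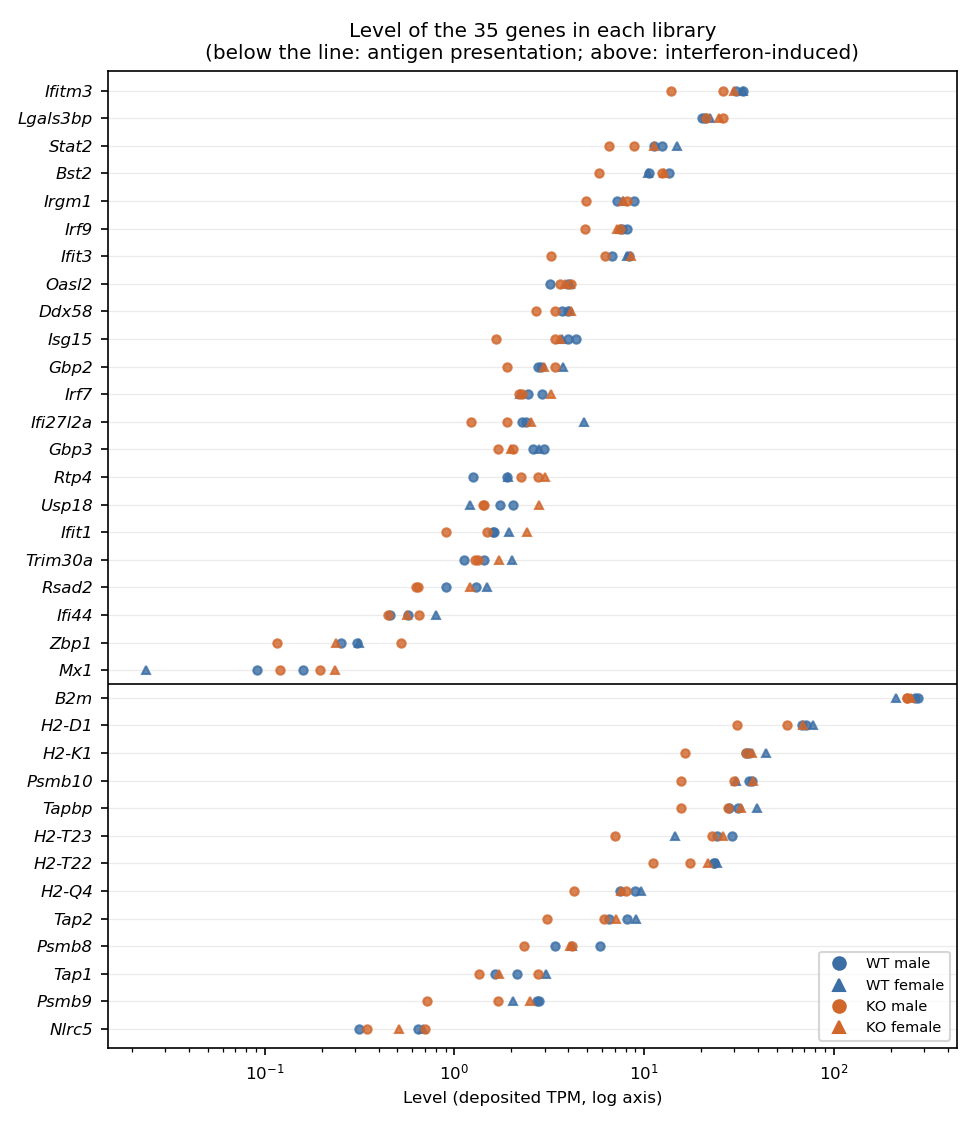
Level of each gene in TPM (log axis), one point per library, circles for males and triangles for females, WT blue and KO orange. Antigen presentation genes lie below the line with B2m at 213 to 280 TPM, and the KO point at the left of most rows is KO 1, lowest in 14 of 22 interferon-induced and 11 of 13 antigen presentation genes on this scale.

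No member of either list differed between genotypes past the threshold. edgeR's quasi-likelihood test at an adjusted p under 0.05 called 0 of 35, where it called 1 of 18956 genes (0.00528%). Adjusted p-values of the members ran from 0.735 to 0.984. At an unadjusted p under 0.05 there were 3 of 35, with 6.38% of all genes passing, namely Stat2 and H2-T22 with lower and Rtp4 with higher values in KO. DESeq2's Wald test called 0 of the 35, 1 of which got no adjusted p, and 0.403% of all genes with one. The 95% interval of the log2 fold change lay within 1 log2 unit of 0, a change of less than 2 times either way, for 14 of 22 interferon-induced and 10 of 13 antigen presentation genes, beside 74% of all genes.

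The interferon-induced list was centred near 0 and the antigen presentation list slightly under it. The median log2 fold change was 0.06 over the 22, −0.13 over the 13 and −0.0036 over all genes tested. Of the 22, 14 had a log2 fold change above 0, of the 13 only 3 (B2m, Nlrc5 and Psmb8), beside 49.4% of all genes. Without KO 1 the medians were 0.03 and −0.05. With library totals in place of TMM the median of all genes moved to −0.17, and the medians of the lists were then −0.11 and −0.29, so that the interferon-induced median changed sign but lay above that of all genes under both scalings.

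Summed over genes, neither list separated the genotypes. The 22 interferon-induced genes together read 96.7, 103 and 105 CPM in WT 1, 2 and F1 and 93.4, 101 and 107 CPM in KO 1, 2 and F1. The 13 antigen presentation genes read 292, 294 and 281 CPM in WT and 282, 283 and 292 CPM in KO, in the same order. The largest and the smallest interferon-induced sum both came from KO libraries. B2m made up the largest share of the antigen presentation sum in each of the 6 libraries. It was highest in KO 1, at 143 CPM, where 9 of the 13 genes were lowest. The steady sum therefore does not show the spread of the other genes.

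**Figure D3:**
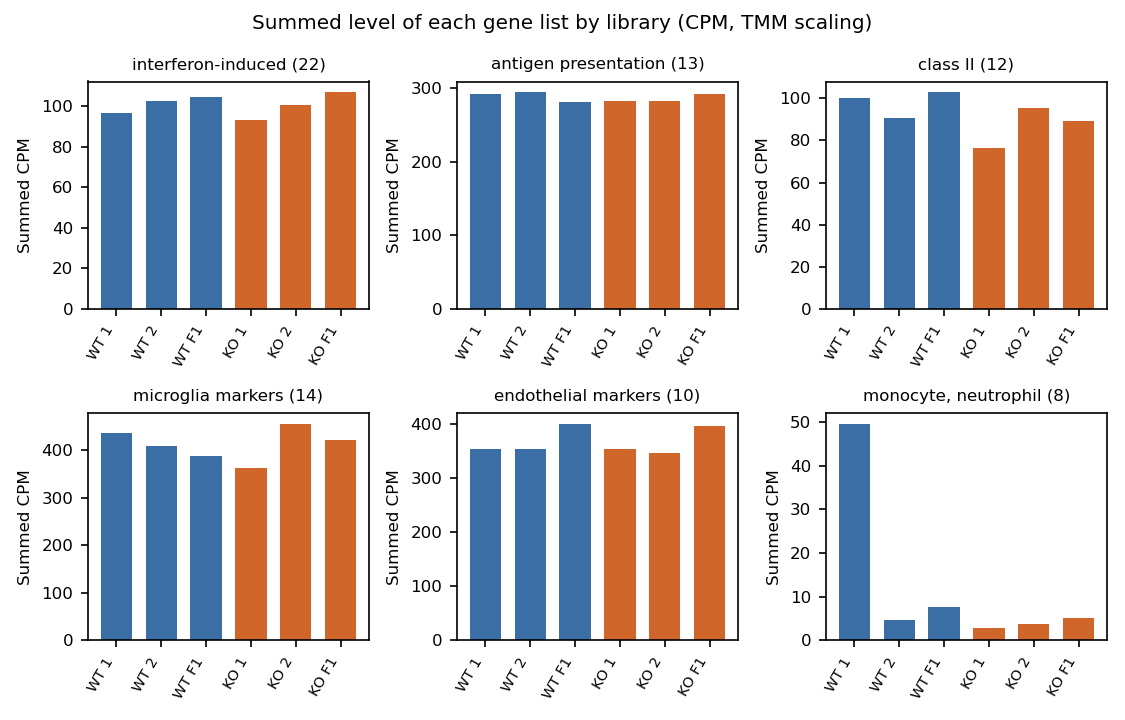
Summed CPM (TMM scaling) of 6 gene lists in each library, WT blue and KO orange, bars from 0. The interferon-induced sums lie between 93.4 and 107 CPM and the antigen presentation sums between 281 and 294 CPM in all 6 libraries, whereas monocyte and neutrophil markers reach 49.6 CPM in WT 1 alone. B2m, highest in KO 1, is the largest part of each antigen presentation sum.

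Among the transcription factors of the pathway, Stat2 (ENSMUSG00000040033, chromosome 10, 128270559 to 128292849, plus strand) had the smallest genotype p of the 35. It read 16.2, 18.9 and 18.2 CPM in WT 1, 2 and F1 and 13.4, 14.4 and 14.7 CPM in KO 1, 2 and F1. All 3 KO libraries lay below all 3 WT libraries. The log2 fold change was −0.33 (SE 0.12, 95% interval −0.61 to −0.04) with an adjusted p of 0.735 in edgeR, and it was −0.29 without KO 1. Irf9, its partner in the ISRE-binding complex, had a log2 fold change of 0.04, and Irf7, which amplifies the response, one of 0.12. Irf9 was among the steadiest of the genes, between 7.95 and 8.81 CPM in all 6 libraries.

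Among effectors against viruses, 2 genes did not overlap between genotypes. Mx1 read 0.13, 0.24 and 0.03 CPM in WT 1, 2 and F1 and 0.28, 0.31 and 0.37 CPM in KO 1, 2 and F1. All KO values lay above all WT values, on 2 to 10 counts a library in WT and 8 to 15 in KO, and the log2 fold change of 1.39 had a 95% interval of −0.14 to 2.93. It was 0.69 without WT F1 or without KO F1, fits in which only the males compare the genotypes, and 1.97 without WT 2. Ifitm3 went the other way, with 9.65, 8.95 and 9.51 CPM in WT 1, 2 and F1 and 6.39, 8.38 and 8.92 CPM in KO 1, 2 and F1. Its highest KO value, in F1, was just under its lowest WT value, and the log2 fold change moved from −0.25 to −0.12 without KO 1. Of all genes tested, 6.61% had every KO library above every WT library and 7.32% the reverse. Among the 35 these were 2 (Mx1 and Rtp4) and 3 (Stat2, Ifitm3 and H2-T22).

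The remaining effectors overlapped. Ifit1, which binds viral RNA lacking the host cap methylation, read 1.81, 1.86 and 2.17 CPM in WT 1, 2 and F1 and 1.63, 1.88 and 2.84 CPM in KO 1, 2 and F1. Its relative Ifit3 read 5.04, 6.27 and 6.03 CPM in WT and 3.86, 5.14 and 6.59 CPM in KO, in the same order. Both were lowest in KO 1 and highest in KO F1, so the KO libraries spanned the WT range. Of the sequence of Ifit3, 41.1% of 75-base windows also occur in its neighbour Ifit3b, and the counting could split reads between them. Oasl2, a relative of the oligoadenylate synthetases, read 4.24, 3.58 and 4.60 CPM in WT 1, 2 and F1 and 7.89, 4.51 and 4.36 CPM in KO 1, 2 and F1. In CPM only KO 1 was high, and the log2 fold change of 0.41 was 0.09 without it. In TPM KO 1 read 4.14, beside 3.21 to 4.10 in WT. Rsad2, which makes an antiviral nucleotide, had a log2 fold change of −0.31, Bst2 one of 0.03, Zbp1 one of −0.22 and Trim30a one of 0.27.

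Isg15, a ubiquitin-like modifier and among the most strongly induced of all interferon targets, had a log2 fold change of −0.23 (95% interval −0.86 to 0.40), and Usp18, the protease that removes it, one of 0.39 (−0.38 to 1.15). Without KO 1 that of Isg15 was −0.073. That of Usp18 was 0.088 without WT F1 or KO F1, where only the males compare the genotypes. Ddx58, which encodes the RNA sensor RIG-I, had one of 0.06 (−0.35 to 0.47). The interferon-induced GTPases Irgm1, Gbp2 and Gbp3 had 0.09, 0.08 and −0.14. None of these 6 genes had a KO group apart from the WT group.

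Of the other interferon-induced genes, Rtp4 (ENSMUSG00000033355, chromosome 16, 23520291 to 23614222, plus strand), a receptor-trafficking protein, read 0.88, 0.68 and 0.92 CPM in WT 1, 2 and F1 and 2.54, 1.14 and 1.30 CPM in KO 1, 2 and F1. The KO libraries all lay above the WT libraries, KO 1 most of all in CPM. In TPM KO F1 was the highest, at 3.01 against 2.77 in KO 1. The log2 fold change was 0.97 (SE 0.38, 95% interval 0.06 to 1.88, adjusted p 0.735 in edgeR) and 0.52 without KO 1. Of its exon bases 13.9% overlap the gene model Gm45338, and the counting could mix the 2. Lgals3bp read 19.1, 19.7 and 21.2 CPM in WT 1, 2 and F1 and 14.7, 23.2 and 24.6 CPM in KO 1, 2 and F1. In CPM KO 1 was the lowest and the other KO libraries the highest of the 6. In TPM KO 1 was instead the highest, at 26.1 against 20.3 to 25.0 in the others. The log2 fold change of Lgals3bp was 0.05, and 0.24 without KO 1. Ifi27l2a read 0.46, 0.49 and 0.93 CPM in WT 1, 2 and F1 and 0.38, 0.42 and 0.51 CPM in KO 1, 2 and F1, with WT F1 alone high. Ifi44 had a log2 fold change of 0.35 (−0.76 to 1.47).

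**Figure D4:**
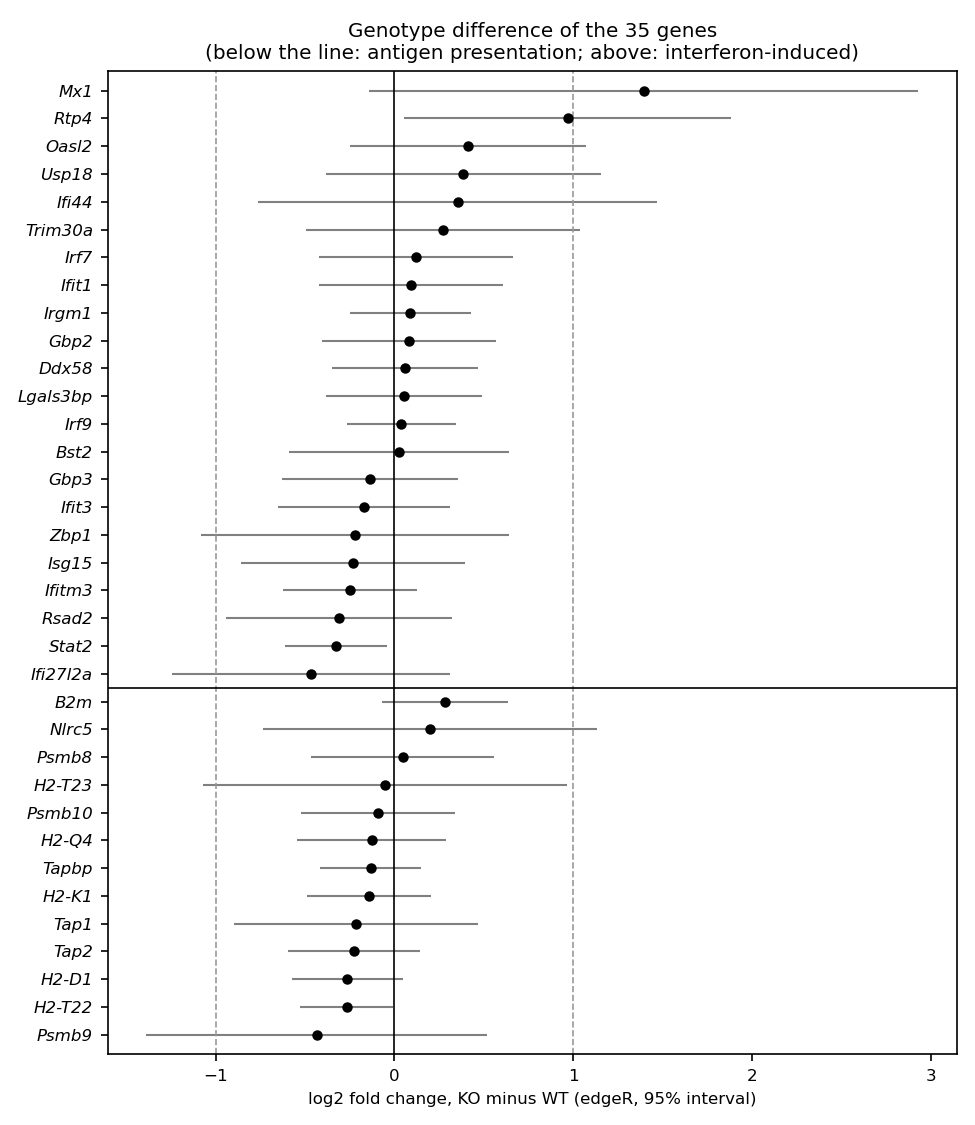
Log2 fold change, KO minus WT, of each gene with its 95% interval from edgeR, antigen presentation below the line and interferon-induced above it. Dashed lines mark 1 log2 unit either side of 0, and the intervals of 24 of the 35 genes lie between them.

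Of the 13 antigen presentation genes, 10 lie on chromosome 17 between 33915899 and 36042747, a stretch of 2.13 Mb that is the mouse MHC, while B2m lies on chromosome 2 and Psmb10 and Nlrc5 on chromosome 8. The heavy chains all had log2 fold changes under 0. H2-D1 (ENSMUSG00000073411, chromosome 17, 35262730 to 35267499, plus strand) read 61.8, 59.6 and 67.4 CPM in WT 1, 2 and F1 and 42.0, 54.7 and 61.5 CPM in KO 1, 2 and F1. KO 1 was lowest, KO 2 lay below the WT libraries and KO F1 within them, giving −0.26 (SE 0.13, 95% interval −0.57 to 0.05) and, without KO 1, −0.14. H2-K1 read 23.7, 22.4 and 28.2 CPM in WT 1, 2 and F1 and 17.7, 24.6 and 24.9 CPM in KO 1, 2 and F1. Here KO 1 alone lay below the WT range, and the log2 fold change of −0.14 was −0.02 without it.

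The non-classical heavy chain H2-T22 (ENSMUSG00000056116, chromosome 17, 36037128 to 36042747, minus strand), whose protein is seen by gamma-delta T cells, was the only gene of this list whose genotypes did not overlap. It read 21.6, 21.2 and 22.02 CPM in WT 1, 2 and F1 and 16.3, 18.0 and 19.7 CPM in KO 1, 2 and F1. The WT libraries were within 1.04 times of each other, and each KO library lay below them. The log2 fold change was −0.27 (SE 0.11, 95% interval −0.53 to −0.0053, adjusted p 0.735 in edgeR) and −0.21 without KO 1. Of its exon bases 29.4% overlap A930015D03Rik on the other strand, which had 0.37 CPM in WT and 0.20 CPM in KO on average, and 40% of its 75-base windows also occur in transcripts of other genes.

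H2-T23, the mouse counterpart of HLA-E, varied most among the heavy chains. It read 16.0, 18.7 and 9.27 CPM in WT 1, 2 and F1 and 7.47, 16.0 and 18.3 CPM in KO 1, 2 and F1. WT F1 and KO 1 were both low and the other 4 lay between 16.0 and 18.7 CPM. The log2 fold change of −0.05 therefore had a wide interval, −1.07 to 0.97, and was 0.37 without KO 1. H2-Q4 had −0.13 (95% interval −0.54 to 0.29), with 20.7% of its 75-base windows shared with other genes.

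B2m (ENSMUSG00000060802, chromosome 2, 122147686 to 122153083, plus strand) went against its partner chains. It read 98.0, 103 and 77.1 CPM in WT 1, 2 and F1 and 143, 98.6 and 96.1 CPM in KO 1, 2 and F1. KO 1 was the highest and WT F1 the lowest, and the other 4 lay between 96.1 and 103 CPM. The log2 fold change was 0.28 (SE 0.15, 95% interval −0.07 to 0.64) and 0.12 without KO 1. In TPM, which is not scaled by TMM, KO 1 was within the WT range, as given above. The ratio of B2m to H2-K1 does not depend on the scaling of a library. It was 7.45, 8.07 and 4.86 in WT 1, 2 and F1 and 14.8, 7.005 and 6.86 in KO 1, 2 and F1, computed from TPM. The ratio of KO 1 was the highest of the 6 and KO 2 and KO F1 lay inside the WT range, with an exact two-sided permutation p of 0.6. The ratio of B2m to H2-D1 was 3.74, 4.11 and 2.73 in WT 1, 2 and F1 and 7.93, 4.29 and 3.71 in KO 1, 2 and F1. There KO 1 and KO 2 lay above the WT range and KO F1 inside it, with an exact two-sided permutation p of 0.3.

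Of the peptide-loading genes, Tap2 read 9.54, 9.73 and 11.1 CPM in WT 1, 2 and F1 and 7.23, 9.74 and 8.92 CPM in KO 1, 2 and F1. Tapbp read 29.4, 27.6 and 34.8 CPM in WT and 23.6, 29.1 and 30.9 CPM in KO, in the same order. In both, KO 1 was the lowest and WT F1 the highest. Their log2 fold changes were −0.22 and −0.13, or −0.12 and −0.053 without KO 1, and that of Tap1 was −0.21. Psmb9 read 1.502, 1.53 and 1.22 CPM in WT 1, 2 and F1 and 0.52, 1.10 and 1.62 CPM in KO 1, 2 and F1. KO F1 was the highest and KO 1, with 15 counts, the lowest. The log2 fold change of −0.43 was −0.079 without KO 1 and −0.87 without WT F1, where only the males compare the genotypes. Psmb8 had 0.05, Psmb10 −0.09 and Nlrc5 0.20. Exons of Tap1 and Psmb9, which start next to each other on opposite strands, overlap over 3.87% of Tap1 and 5.79% of Psmb9, and 29% of the exon bases of Tapbp overlap another tested gene.

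**Figure D5:**
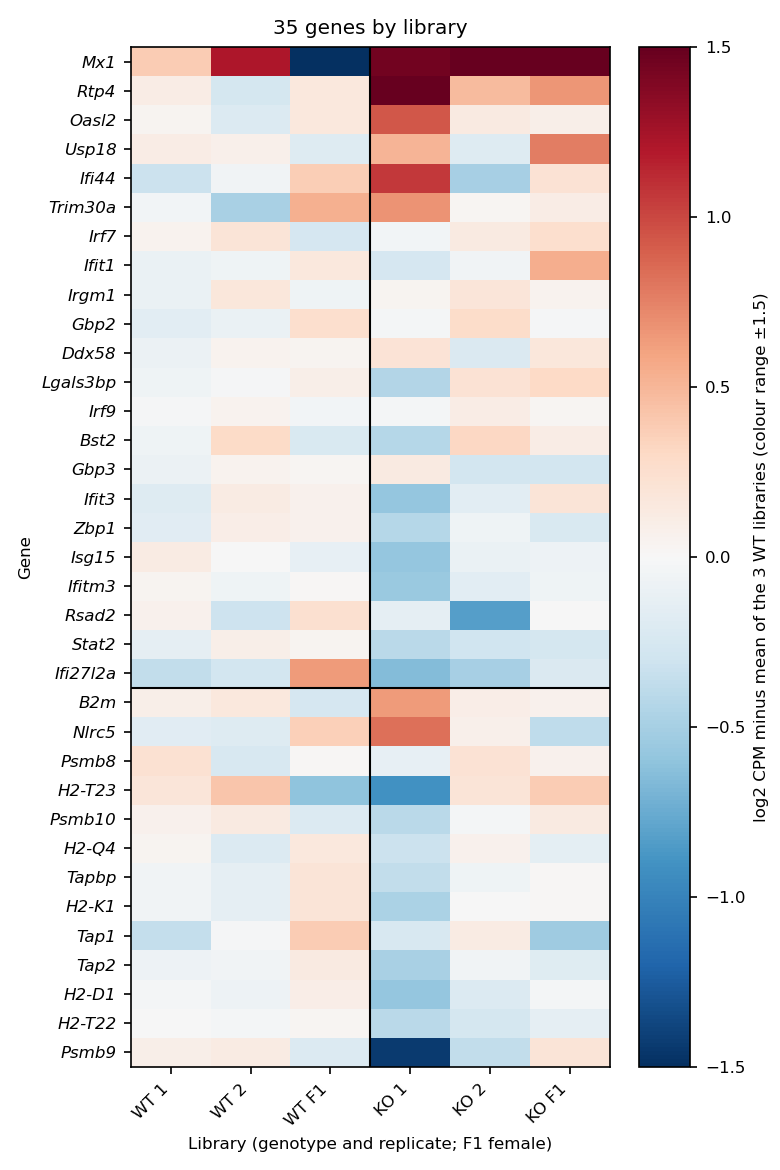
Log2 CPM of each gene in each library minus the mean of the 3 WT libraries, with colours from −1.5 to 1.5 (values beyond are drawn at the end colour), antigen presentation below the line. The KO 1 column holds the deepest blues among antigen presentation genes together with red for B2m and Nlrc5, and KO 1 was the lowest library in 9 of these 13 genes.

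In the antigen presentation list much of the spread lay in a single library. KO 1 was the lowest of the 6 libraries in CPM for 9 of 13 antigen presentation genes and for 9 of 22 interferon-induced genes, and the highest for 2 and 6. The median deviation of KO 1 from each gene's mean was −0.30 log2 units over the antigen presentation genes, and that of the other 5 libraries ran from 0.02 to 0.23, the highest in WT F1, which was the highest library for 7 of the 13. Over the interferon-induced genes the median deviation of KO 1 was −0.055, inside the −0.089 (WT 1) to 0.086 (WT F1) of the others. KO 1 was also the library with 20.6% mitochondrial counts. The constitutive proteasome subunits Psmb5, Psmb6 and Psmb7 were lowest in KO 1 too, at 34.1, 41.1 and 58.5 CPM against 47.7 to 79.9 CPM in the others over the 3 genes. The part that the mitochondrial share had in these values was not tested.

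Sex was compared over 4 male and 2 female libraries. In edgeR 0 of the 35 members passed the threshold, beside 0.0422% of all genes, and 0 had an unadjusted p under 0.05, beside 4.58%. DESeq2 likewise called 0 of the 35. The smallest p-values belonged to Ifit1, Ifi27l2a and Ifit3, with female minus male log2 differences of 0.47, 0.68 and 0.32, and to B2m, Tapbp and H2-D1, with −0.36, 0.26 and 0.25. In B2m the female libraries, at 77.1 and 96.1 CPM, were the lowest of the 6. The test of whether the genotype difference was unequal between sexes called 0 of 35, beside 0.0739% of all genes, and DESeq2 called 0 as well. At an unadjusted p under 0.05 there was 1 of 35 (H2-T23), beside 7.42% of all genes, with a difference of 1.53 log2 units between the female and the male contrast (95% interval 0.01 to 3.05) resting on 1 female library per genotype. Taken within sex, the genotype difference had the same sign in males and females for 12 of 22 interferon-induced and 8 of 13 antigen presentation genes. Stat2 had −0.34 in males and −0.31 in females, H2-T22 −0.32 and −0.16, and Rtp4 1.13 and 0.50.

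The upstream side of the pathway was read from the same libraries, and no tested gene of it passed the threshold in edgeR. Of all genes tested 0.00528% passed, and 49.4% had a log2 fold change above 0. The 21 interferon ligand genes fell under the filter on low counts and were not tested. Of 21 interferon ligand genes, 20 had 0 counts in every library, which allows up to 0.051 CPM in WT F1 and 0.104 CPM in KO 1, counting error only, and Ifnz had at most 4 counts. The receptor gene Ifnar1 read 43.7, 40.8 and 38.7 CPM in WT 1, 2 and F1 and 38.0, 40.8 and 36.8 CPM in KO 1, 2 and F1. Of 20 receptor and signalling genes, 12 were above 0 and the median was 0.04. Pias1, an inhibitor of STAT signalling, and Irf2, a repressor of ISRE-driven genes, had the smallest p there, with 0.27 and 0.44. Of 23 genes listed for nucleic acid sensing, signalling adaptors and nucleases among them, 14 lay above 0, with a median of 0.03. Tlr7, the endosomal receptor for single-stranded RNA, read 1.502, 1.67 and 2.87 CPM in WT 1, 2 and F1 and 1.22, 0.94 and 1.30 CPM in KO 1, 2 and F1. It did not overlap between genotypes, with −0.77 (SE 0.25, adjusted p 0.735 in edgeR), and Rnaseh2c, a subunit of the RNase that removes RNA from DNA hybrids, had −0.42. In all, 3 of the 23 genes of this list had every KO library below every WT library, beside 7.32% of all genes. The reverse held for 0 of the 23, beside 6.61%.

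The same held for relatives of the members. Of all genes tested, edgeR called 0.00528%, and 49.4% had a log2 fold change above 0. Of 63 other interferon-induced genes 55 passed the filter on low counts and 0 were called, with 32 above 0 and a median of 0.07. The smallest p-values belonged to Tgtp1, a GTPase, with 0.77, and to Xaf1, a proapoptotic protein, with 1.45. Of 24 other class I heavy chains 15 were tested and 0 called, with 3 above 0 and a median of −0.16, led by H2-Q2 with −0.90 and H2-Bl with −0.69. Among the member chains, the share of 75-base windows also found in other genes was 3.1% for H2-K1, 5.56% for H2-D1 and 5.91% for H2-T23. It was 20.7% for H2-Q4 and 40% for H2-T22. Reads from such windows could be split between genes. The 11 genes of class I assembly and regulation had a median of 0.04, led by Psme2, an activator of the proteasome, with −0.35, and Creb1 with 0.28. Psmb5, Psmb6 and Psmb7 had −0.41, −0.28 and −0.10. Of 12 class II genes 11 were tested, 0 called, and the median was 0.01, with Cd74, the invariant chain, at −0.09.

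Markers of cells that could carry these transcripts were measured beside them, and their part in the results was not tested. The 14 microglia markers together read 436, 408 and 387 CPM in WT 1, 2 and F1 and 362, 455 and 421 CPM in KO 1, 2 and F1, and the 10 endothelial markers 354, 353 and 400 CPM and 354, 347 and 396 CPM. Neither sum separated the genotypes, and KO 1 had the lowest microglia sum. DESeq2 called 1 of the 14 microglia markers (P2ry12), beside 0.403% of all genes, and edgeR 0. At an unadjusted p under 0.05 in edgeR there were 2 of the 14, with higher values in KO, beside 6.38% of all genes. The 7 perivascular macrophage markers read 36.6, 28.4 and 40.2 CPM in WT 1, 2 and F1 and 24.5, 35.8 and 38.9 CPM in KO 1, 2 and F1. They were lowest in KO 1 and highest in WT F1, as were H2-K1, H2-D1, H2-T22, H2-Q4, Tap2 and Tapbp among the antigen presentation genes. B2m was the reverse, and the other genes of that list followed neither order. The 8 markers of meninges and fibroblasts were highest in WT F1 as well, at 138 CPM against 63.8 to 116 CPM in the others. The 8 monocyte and neutrophil markers read 49.6 CPM in WT 1 and 2.92 to 7.64 CPM in the other libraries, with S100a9 at 114 TPM in WT 1. WT 1 was the highest library for 2 of 22 interferon-induced and 1 of 13 antigen presentation genes. The 14 lymphocyte markers read 20.7 CPM in WT 1, 7.18 CPM in WT F1 and 13.7 to 18.2 CPM in the others. Most of their counts were those of Cd4 (212 to 750 a library), 3 of the 14 passed the filter, and Cd3d was at 0 counts in all 6 libraries.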

How the data were processed

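Messenger RNA libraries of 6 tissue samples, 3 WT and 3 KO, were analysed from 1 table. It gives, per the file headers, the authors' read count per Ensembl gene and library in whole numbers, and the corresponding TPM and FPKM. Trimmomatic 0.36, FastQC 0.11.2 and bedtools 2.26.0 are named, with no role or order, per the submitters' processing notes. Which aligner, counter, strand setting and genome build were used is not given in the sources used here. Coordinates are those of the deposited table, identical to GENCODE M21 (GRCm38) for 32 of the 35 genes (not H2-K1, Tapbp and Psmb9). The deposited FPKM values were not used.

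Counts were fitted with edgeR 4.0.16 (R 4.3.3, filterByExpr by genotype, 18956 genes kept, TMM, robust quasi-likelihood, terms genotype and sex), with Benjamini-Hochberg adjustment over all genes at 0.05. CPM use TMM-scaled library sizes, and deposited TPM serve for levels between genes and for ratios. Alternatives, with DESeq2 1.42.0 and limma 3.58.1 among them, are given in the closing section. The labels do not say whether libraries came from separate animals or pools, so p-values measure the spread between these libraries, which may be technical.

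The 35 genes and the other lists were chosen with earlier results of these data known. Values per library are given in each list for the 6 smallest genotype p-values, the 3 highest mean TPM and the 3 smallest sex p-values. Other pathway lists are given by counts and the 2 smallest p-values. H2-T23, Ifnar1, Cd74, Psmb5, Psmb6, Psmb7 and the named markers were picked with their values in view. Overlap of exons was computed from GENCODE M21, and a 75-base window of a transcript was called shared when it occurs in a transcript of another gene.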

Additional observations from a re-analysis of the deposited data

How the results depend on the processing

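In none of the 17 alternatives run was a member called between genotypes (lowest adjusted p 0.551), nor was one called between sexes where that contrast could be fitted. Males alone have no sex contrast. Of all genes, KO versus WT called 4 with no filter on low counts, 75 with DESeq2's Wald test, 4 with limma-trend on log2(TPM + 1), 3 with no sex term, 18 in males only and 0 to 20 with 1 library left out (0 without WT 1, WT 2 or KO 2, 7 without KO 1, 15 without KO F1 and 20 without WT F1). Female versus male called 13 with no filter, 52 with DESeq2, 15 with limma-trend, 4 among protein-coding genes and 6 to 25 with 1 library left out (13 without KO 1, 14 without WT F1 and 25 without KO F1). Same-numbered libraries did not deviate together (correlations of their deviations −0.04, 0.02 and 0.01), and the fit with a replicate block called 0 genes. The labels do not say what the replicate numbers mark.

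The interferon-induced median was −0.11 with library totals, −0.16 with limma-trend, −0.040 in males only and −0.051 to 0.076 with 1 library left out. It turned negative without WT F1, KO 2 or KO F1. With WT F1 or KO F1 left out, the sex term takes up the remaining female library. Both fits then repeat the genotype comparison of males only. The antigen presentation median was −0.29 with library totals, −0.40 with limma-trend and −0.27 (without KO 2) to −0.053 (without KO 1) with 1 library left out. Library totals and limma-trend also moved the median of all genes, to −0.17 and −0.24.

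Of 590 log2 fold changes of single members under alternatives, 541 kept their sign and 49 did not, in 16 genes, each of them uncalled. With library totals these were Ifit1 −0.064, Bst2 −0.12, Irf7 −0.039, Irf9 −0.12, Ddx58 −0.12, Irgm1 −0.071, Gbp2 −0.073, Lgals3bp −0.094 and Psmb8 −0.11. With limma-trend they were Ifit1 −0.10, Bst2 −0.21, Trim30a −0.035, Irf9 −0.24, Ddx58 −0.17, Irgm1 −0.19, Gbp2 −0.15, Ifi44 −0.046, B2m −0.024, Psmb8 −0.28 and Nlrc5 −0.024. In males only they were Ifit1 −0.061, Bst2 −0.13, Irf7 −0.070, Lgals3bp −0.030 and Tap1 0.13. The fits without WT F1 and without KO F1 repeat this comparison of males, and each also changed 5 signs. With 1 library left out, Ifit1 ranged from −0.061 to 0.19, Bst2 from −0.15 to 0.25, Trim30a from −0.020 to 0.62, Irf7 from −0.070 to 0.22, Ddx58 from −0.054 to 0.18, Gbp2 from −0.059 to 0.26 and Ifi44 from −0.24 to 0.65. Lgals3bp ranged from −0.13 to 0.24, H2-T23 from −0.55 to 0.37, Tap1 from −0.43 to 0.13, Psmb8 from −0.075 to 0.19, Psmb10 from −0.30 to 0.074 and Nlrc5 from −0.16 to 0.66. Among genes that kept their sign, Mx1 ranged from 0.69 to 1.97, Usp18 from 0.088 to 0.65, Isg15 from −0.37 to −0.073 and Psmb9 from −0.87 to −0.079. The cause was not tested.

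With 3 libraries a genotype the smallest standard error of a member was 0.11 log2 units and the largest, for Mx1 at 2 to 15 counts, 0.64. Zbp1, with 8 to 23 counts a library, and Psmb9, with 15 to 72, also rested on few counts.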

Other observations

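Xaf1, an interferon-induced gene outside the 35, varied widely among the KO libraries. It read 4.26, 4.69 and 3.53 CPM in WT 1, 2 and F1 and 24.01, 12.8 and 4.04 CPM in KO 1, 2 and F1. The male KO libraries lay above all others and the female KO library lay within the WT range. The test of an unequal genotype difference between sexes gave −1.84 log2 units, female contrast minus male contrast (95% interval −3.19 to −0.49, adjusted p 0.455 in edgeR).

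Of the 55 other interferon-induced genes tested, 5 had all KO libraries above all WT libraries and 2 (Ifit3b and Trim12c) had all below. Of all genes tested, 6.61% had all above and 7.32% all below. Tgtp1 and Ifi207 were among the 5. Tgtp1 read 1.04, 1.22 and 1.10 CPM in WT 1, 2 and F1 and 2.29, 1.81 and 1.67 CPM in KO 1, 2 and F1, and Ifi207 read 0.31, 0.26 and 0.39 CPM in WT and 0.80, 0.72 and 0.56 CPM in KO, in the same order. Neither passed the threshold in edgeR (adjusted p 0.735 for each), and both were picked from 55 tested genes for their small p.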
